A study of Mus musculus with 8 samples.

Results

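AMPA receptor subunit genes (*Gria1*, *Gria2*, *Gria3* and *Gria4*) and 5 genes of the transmembrane AMPA receptor regulatory proteins, or TARPs (*Cacng2*, *Cacng3*, *Cacng4*, *Cacng7* and *Cacng8*), were followed in single interneurons of mouse frontal cortex. They were chosen by gene name and make up 9 of the 23335 gene names and 12 of the 27207 rows of the count table. AMPA receptors are tetramers of Gria subunits that open to glutamate and carry most fast excitatory current in the brain. Receptors that contain the edited form of *Gria2* pass little calcium, and fast-spiking interneurons are known for receptors with little *Gria2* and a high calcium permeability. TARPs bind the receptor, help to bring it to the cell surface and the synapse, and slow its closing.

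Cells that express a red fluorescent protein from the Ai14 reporter were picked by hand, and their messenger RNA was amplified with varietal tags, so that each tag marks 1 molecule (UMI). Chandelier cells (ChC) came from Nkx2.1-CreER; Ai14 mice, in which tamoxifen given before birth (E17.5) starts recombination, and parvalbumin cells (Pv) came from Pv-ires-Cre; Ai14 mice. The driver line, and no measured marker, defines each cell type, and the labels repeat the tamoxifen text for the Pv mice, whose Cre does not need it. ChC batches 1 and 2 came from animal 1 (postnatal day 31) and batches 3 and 4 from animal 2 (day 32), and Pv batches 5 and 6 came from animal 3 (day 29) and batches 7 and 8 from animal 4 (day 35). All 4 mice are labeled female, and every sample title calls the mice WT. ChC libraries were run on one flow cell and Pv libraries on another, so cell type, mouse line and flow cell cannot be told apart. On each flow cell the batches of the first animal were on lane 1 and those of the other on lane 2, so lane and animal cannot be told apart within a cell type either.

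Each batch held 16 cells, and 126 of the 128 cells had a UMI, 63 of each type. Cells are named by number and the table holds no barcodes, and 0 pairs of columns were identical among the cells with a UMI. ChC batches 1 to 4 held 448121, 556405, 2460679 and 1123083 UMI, and Pv batches 5 to 8 held 392580, 430860, 316540 and 797177 UMI. Single ChC had from 903 to 515374 UMI, with a median of 33244, and single Pv cells from 2000 to 93438, with a median of 23248. Levels below are counts-per-million values (CPM) of the UMI of a batch after TMM scaling by edgeR, errors are the SD over the 4 batches of a cell type, and batches are listed in the order of their numbers. The pair of batches from an animal is not a pair of independent samples, so tests used UMI summed per animal, 2 animals against 2.

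The labels were checked against markers of the cells. *Pvalb*, which encodes parvalbumin, was at 162, 203, 107 and 86.7 CPM in the ChC batches and at 1789, 798, 551 and 1153 CPM in the Pv batches. All Pv batches were above all ChC batches. *Slc32a1*, the vesicular GABA transporter, was at 2213 ± 594 CPM in ChC and 2219 ± 1054 CPM in Pv batches (SD, n = 4 each), and *Gad1*, a GABA-synthesizing enzyme, was at 1213 ± 601 and 1500.2 ± 946 CPM. The other enzyme, *Gad2*, was at 663 ± 349 CPM in ChC and 220.2 ± 218 CPM in Pv batches. *Erbb4*, a neuregulin receptor of interneurons, was at 4615 ± 821 CPM in ChC and 1749 ± 262 CPM in Pv batches, again without overlap. All 9 markers of GABAergic interneurons had a UMI, and their summed level was lowest in batch 7, at 4777 CPM, and between 8026 and 11654 CPM in the other batches.

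Markers of other cells were not absent. Of 7 pyramidal markers 4 had a UMI, and their sum was 39.3, 333, 32.0 and 418 CPM in ChC batches and 322, 55.8, 1397 and 213 CPM in Pv batches. The sum was highest in batch 7, where *Nrgn*, the most abundant of them, reached 1075 CPM, and *Neurod6*, *Tbr1* and *Emx1* were at 0 in all batches. *Slc17a7*, a vesicular glutamate transporter, named here after its values were seen, was at 285.7 CPM in batch 7, 86.7 CPM in batch 4 and between 0 and 50.2 CPM in the other batches. Of 7 astrocyte markers 6 had a UMI, with a sum of 41.8, 331, 261 and 780 CPM in ChC and 108, 55.8, 842 and 354 CPM in Pv batches. *Slc1a2* was the most abundant of these and *Gfap* was at 0, and batches 4 and 7 were the highest of their cell types. Microglial markers (4 of 5 with a UMI, *C1qa* at 0, *P2ry12* most abundant) summed to 87.6 CPM in batch 4 and to between 0 and 12.99 CPM in the other batches. Sums were between 7.44 and 150.4 CPM for oligodendrocytes (5 of 7, *Mobp* and *Mag* at 0, *Mbp* most abundant), between 6.81 and 22.3 CPM for endothelium (3 of 4, *Cldn5* at 0, *Flt1* most abundant) and between 0 and 41.6 CPM for oligodendrocyte precursors (2 of 4, *Cspg4* and *Olig2* at 0, *Olig1* most abundant). Markers of other interneurons (8 of 9, *Vip* at 0, *Cck* most abundant) summed to 1613 CPM in batch 4 and to between 111 and 700 CPM elsewhere. The part of these cells in the results below was not tested, and values without batches 4 and 7 are given beside *Gria1*, *Gria4* and *Olfm3*.

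*Gria1*, a subunit whose insertion at synapses accompanies long-term potentiation in principal neurons, lies on the plus strand of mm9 at chr11:56825120-57143746 and had 12395 UMI in 126 of 126 cells. It was at 1303, 3903, 1945 and 2948 CPM in ChC batches and at 893, 927, 307 and 940 CPM in Pv batches. Every ChC batch was above every Pv batch, the highest being batch 2 and the lowest batch 7. The means were 2525 ± 1141 CPM in ChC and 767 ± 307 CPM in Pv batches (SD, n = 4 each). Summed per animal the levels were 2766 and 2216 CPM in ChC and 919 and 737 CPM in Pv, a log2 fold change of 1.59 (standard error 0.42, adjusted p = 0.582 by edgeR's quasi-likelihood test over 9681 genes). The log2 fold change was 1.37 without batches 4 and 7 (adjusted p = 0.435), a setting chosen after seeing the data.

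*Gria4*, a fast-gating subunit abundant in parvalbumin cells, lies on the minus strand at chr9:4417893-4796234 and had 9876 UMI in 125 cells. It was at 1800, 1012, 2549 and 957 CPM in ChC batches and at 807, 344, 283 and 741 CPM in Pv batches. The ChC batches were again all above the Pv batches, but batches 4 and 5, the nearest of the 2 groups, lay closer to each other than to the most distant batches of their own cell types. The part of the *Gria4* UMI in a shorter row of the gene ran from 19.01% to 84.1% between batches. Levels outside that row were not compared. The means were 1579 ± 753 and 544 ± 268 CPM (SD, n = 4 each). Per animal *Gria4* was at 1343 and 2020 CPM in ChC and at 565 and 595 CPM in Pv, a log2 fold change of 1.54 (standard error 0.47, adjusted p = 0.590 from edgeR). It was 1.61 without batches 4 and 7 (adjusted p = 0.435). With each batch left out it ran from 1.01 (without batch 3) to 1.99 (without batch 8).

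*Gria2*, the subunit that sets calcium permeability, lies on the minus strand at chr3:80488858-80606713 and had 3116 UMI in 121 cells. Its level was 207, 668, 692 and 391.6 CPM in ChC batches and 388, 279, 148 and 232 CPM in Pv batches. The cell types overlapped, since ChC batch 1 was below 3 of the 4 Pv batches. The means were 489 ± 233 and 262 ± 100.2 CPM (SD, n = 4 each), and the animals gave a log2 fold change of 0.98 (standard error 0.60, adjusted p = 0.887 from edgeR). With each batch left out this fold change ran from 0.62 (without batch 2) to 1.26 (without batch 1).

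*Gria3*, the subunit encoded on the X chromosome, lies on the plus strand at chrX:38754481-39031778 and had 1590 UMI in 117 cells. It stood at 416, 66.9, 202 and 138 CPM in ChC batches and at 768, 133, 408 and 282 CPM in Pv batches. Batches 1, 3, 5 and 7 each lay above the other batch of their animal, and the cell types overlapped. *Gria3* was the 1 member tested with a negative log2 fold change, at -0.93 (standard error 0.64, adjusted p = 0.924 from edgeR), with means of 206 ± 150.5 CPM in ChC and 398 ± 271 CPM in Pv batches (SD, n = 4 each). Its log2 fold change was -0.25 without batch 2, -0.24 without batch 5 and -1.58 without batch 1.

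*Cacng2*, or stargazin, the TARP whose loss causes seizures and ataxia in stargazer mice, lies on the minus strand at chr15:77824053-77949710 and had 1477 UMI in 109 cells. It was at 369, 219, 229.9 and 131 CPM in ChC batches and at 33.3, 177, 283 and 351 CPM in Pv batches. Batch 5 was the lowest of the 8, and the other Pv batches lay within the range of the ChC batches. The log2 fold change was 0.12 (standard error 0.78, adjusted p = 0.999 from edgeR), and it turned negative without batch 1, 3 or 5 or without animal 1 or 3, at between -0.44 and -0.06, and was 1.09 without animal 4.

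*Cacng7*, a TARP best known from neurons of the cerebellum, lies on the plus strand at chr7:3336685-3366537 and had 431 UMI in 69 cells. It was at 162, 29.8, 121 and 8.05 CPM in ChC batches and at 13.9, 7.28, 31.2 and 20.2 CPM in Pv batches. These levels rest on 66, 16, 303 and 9 UMI in ChC and on 5, 3, 12 and 17 UMI in Pv batches. Batches 1 and 3 were high and batch 4 lay below 3 of the 4 Pv batches, so that the cell types overlapped. The log2 fold change was 2.32 (standard error 1.24, adjusted p = 0.847 from edgeR), and it ran from 1.46 without batch 3 to 3.01 without animal 4.

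*Cacng3*, a TARP of the same type as stargazin, lies on the plus strand at chr7:129815258-129912907 and had 346 UMI in 68 cells. Its level was 73.8, 7.44, 104 and 7.15 CPM in ChC batches and 16.6, 2.43, 38.96 and 26.1 CPM in Pv batches. These levels rest on 30, 4, 260 and 8 UMI in ChC and on 6, 1, 15 and 22 UMI in Pv batches. The same pair of ChC batches as for *Cacng7*, 1 and 3, was high, and batches 2 and 4 lay among the Pv batches. The log2 fold change was 1.46 (standard error 1.36, adjusted p = 0.975 from edgeR), and it was 0.12 without batch 3.

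*Cacng8*, the main TARP of hippocampal pyramidal cells, lies beside *Cacng7* at chr7:3394459-3415366 and had 18 UMI in 17 cells. It was at between 2.40 and 5.58 CPM in ChC batches and between 1.19 and 2.77 CPM in Pv batches, from 1 to 6 UMI a batch. *Cacng4*, on the minus strand at chr11:107596094-107655778, had 9 UMI in 7 cells, all in batch 3, the deepest. This is 3.66 CPM of the batch total without scaling, with an exact Poisson 95% confidence interval of 1.67 to 6.94. In the other 7 batches, with 0 UMI, the upper limits of such intervals were between 3.28 and 11.7 CPM. These limits lie within or above the interval of batch 3, and the other 7 batches together were not tested against it. Neither gene passed the filter on low counts, and with no filter their log2 fold changes were 0.71 for *Cacng8* (standard error 2.18, adjusted p = 0.9896 from edgeR) and 4.35 for *Cacng4* (standard error 3.62, adjusted p = 0.911 from edgeR). With 0 UMI in all Pv batches the *Cacng4* value rests on the tool's handling of a group at 0, and DESeq2 gave 2.74.

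**Figure D1:**
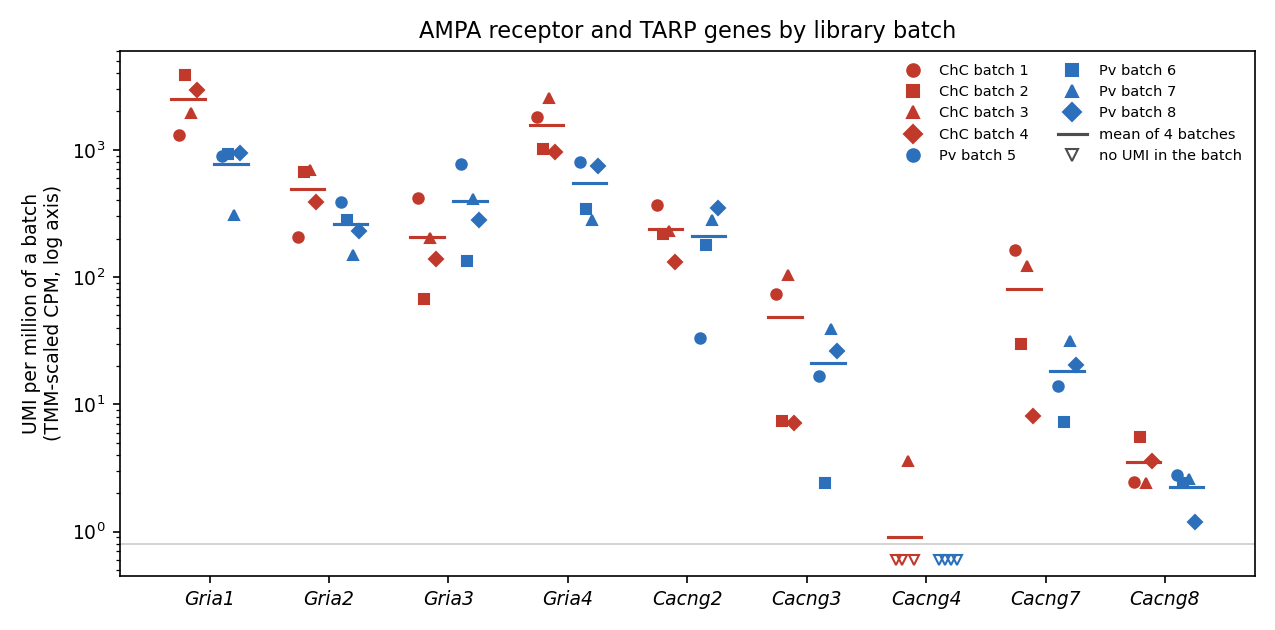
Level of the 9 genes in each of the 8 library batches, as TMM-scaled CPM on a log axis, with a bar at the mean of the 4 batches of a cell type. Open triangles under the grey line mark batches without a UMI, and ChC batches all lie above Pv batches for *Gria1* and *Gria4* only.

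Of the 9 members 7 passed the filter on low counts and were tested, and 0 passed an adjusted p of 0.05 in edgeR over the animals, where 0 of all 9681 genes tested (0.00%) passed and 618 had an unadjusted p under 0.05. The members with such an unadjusted p were *Gria1* and *Gria4*. Other tools and settings passed 165 of 16531 genes (DESeq2 without that filter, where 10121 genes had an adjusted p), 158 of 9681 genes (DESeq2 after the filter, chosen after seeing the data, where 8930 had one), 84 of 16531 genes (edgeR with no filter) and 6 of 6283 genes (batches as samples, and also limma with the animal as a random effect). The correlation between batches of an animal that limma estimated was -0.0426, so its fit treated these batches nearly as independent. The 1 member that passed in any of these tools and settings was *Gria1*, in edgeR with no filter, at an adjusted p of 0.0470, and DESeq2 gave no adjusted p for *Cacng4* and *Cacng8*. For *Gria1* the adjusted p over all alternatives ran from 0.0470 to 0.975. For 2 of the 7 members tested in batches, *Gria1* and *Gria4*, all ChC batches were higher, against 200 of 6283 genes (3.18%). For 0 of 7 all Pv batches were higher, against 104 of 6283 genes (1.66%). The log2 fold change was positive for 6 members and negative for 1, with a median of 1.46, and over all genes it was positive for 4997 and negative for 4684, with a median of 0.05. Without ChC batch 3 the members' median was 0.70, with 5 positive and 2 negative. Over all alternatives the members' median ran from 0.70 to 1.53 (without batch 4), and with *Cacng4* and *Cacng8* included it was 1.52 (edgeR with no filter) and 1.49 (DESeq2), with 8 positive and 1 negative in both.

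Levels of different genes were compared per kb of the genomic span of the row, a scale that counts introns as length. On this scale *Gria1* had the highest mean in ChC batches, at 7.92 ± 3.58 CPM per kb (SD, n = 4). *Gria4* at 4.17 ± 1.99 and *Gria2* at 4.15 ± 1.97 CPM per kb followed, and *Cacng7* (2.69 ± 2.46), *Cacng2* (1.89 ± 0.784), *Gria3* (0.742 ± 0.543), *Cacng3* (0.493 ± 0.499), *Cacng8* (0.168 ± 0.0710) and *Cacng4* (0.0151 ± 0.0302) came after them. In Pv batches the order was *Gria1* (2.41 ± 0.964 CPM per kb), *Gria2* (2.22 ± 0.850), *Cacng2* (1.68 ± 1.10), *Gria4* (1.44 ± 0.709), *Gria3* (1.43 ± 0.978), *Cacng7* (0.607 ± 0.341), *Cacng3* (0.215 ± 0.158) and *Cacng8* (0.107 ± 0.0344), with *Cacng4* at 0. In both cell types the mean ± SD of each gene, *Gria1* included, overlapped that of the next gene in the order down to *Cacng8*. Among the Gria genes *Gria1* was highest per kb in 4 of 8 batches (2 ChC and 2 Pv), *Gria4* in ChC batches 1 and 3, *Gria2* in Pv batch 5 and *Gria3* in Pv batch 7. *Gria3* was lowest in 6 batches and *Gria4* in 2, both Pv. Counted as UMI and not per length, *Gria1* was highest in 5 batches, *Gria4* in 2 and *Gria3* in 1. By this count *Gria2* and *Gria3* were each lowest in 4 batches. In batch 1 *Cacng7*, at 5.44 CPM per kb, was above *Gria4* (4.76) and *Gria1* (4.09).

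The scale has a limit that the rows themselves show. Both *Gria2* rows share their 5′ end, and the longer one adds 6.556 kb at the 3′ end. These 6.556 kb held 2077 of the 3116 UMI, or 317 UMI per kb, against 9.34 UMI per kb in the shorter row. The shorter row's part of the *Gria2* UMI was 14.3%, 64.3%, 38.6% and 13.01% in ChC batches and 20.0%, 14.8%, 33.3% and 4.10% in Pv batches, a difference between batches that crosses cell types. For *Gria4* the shorter row, at chr9:4478263-4796234, held 7281 UMI (73.7%). Its part was 72.3%, 61.03%, 77.1% and 84.1% in ChC batches and 34.7%, 19.01%, 76.1% and 64.3% in Pv batches. Whether the *Gria4* UMI outside it also lay higher in all ChC batches was not tested. This row ends before the exon with the RNA editing codon shown further below. For *Gria1* the shorter row held 12392 of 12395 UMI. UMI of a gene were thus not spread evenly over its span.

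The share of *Gria2* in the Gria UMI of a batch does not depend on the depth or scaling of the library. Its denominator includes the *Gria4* UMI of the shorter row, and the share without them was not computed. The *Gria2* share was 5.54%, 11.8%, 12.8% and 8.83% in ChC batches and 13.6%, 16.6%, 12.9% and 10.6% in Pv batches. Batches 2 and 3 lay above batch 8, so the cell types overlapped, while the lowest share (batch 1) was in ChC and the highest (batch 6) in Pv. Exact (Clopper-Pearson) 95% confidence intervals for counting error ran from 4.45% to 6.82% in batch 1 (84 of 1515 UMI) and from 13.9% to 19.5% in batch 6 (115 of 694 UMI), and the intervals of batches 1, 2 and 4 of ChC did not overlap. The batch means were 9.76% ± 3.29 in ChC and 13.4% ± 2.48 in Pv (SD, n = 4 each).

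By animal the *Gria2* share was 9.73% and 11.8% in ChC and 14.8% and 11.01% in Pv, a difference of -2.16 percentage points. It was -1.11 without batch 1, -4.25 without batch 2 and -0.267 without animal 3. A two-sided exact permutation test over the animals gave p = 0.667, where 2 animals against 2 allow no p under 0.333. Over batches, which treats batches of an animal as independent, the difference was -3.65 points and the exact permutation p was 0.143. With UMI summed over both rows of a gene, the rule by which the members were first defined, the share was 3.71%, 10.4%, 10.03% and 5.37% in ChC batches and 11.3%, 11.8%, 11.6% and 6.66% in Pv batches. Per kb of span it was 14.5%, 27.2%, 30.2% and 21.3% in ChC and 29.9%, 35.5%, 28.3% and 24.9% in Pv batches. The overlap of batch 8 with ChC batches 2 and 3 held on all 3 scales.

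For each of the other 3 subunits, the largest difference in share between batches of an animal exceeded the difference between the cell type means. *Gria1* made up 35.0%, 69.1%, 36.1% and 66.5% of the Gria UMI in ChC batches and 31.3%, 55.04%, 26.8% and 42.8% in Pv batches. In each animal 1 batch was low and the other high, by up to 34.1 points. *Gria4* took 48.3%, 17.9%, 47.3% and 21.6% in ChC and 28.3%, 20.5%, 24.7% and 33.8% in Pv batches, and among ChC batches it was high where *Gria1* was low, by CPM as well as by share. *Gria3* took 11.2%, 1.18%, 3.75% and 3.11% in ChC and 26.9%, 7.93%, 35.6% and 12.8% in Pv batches, with only ChC batch 1 above a Pv batch. Its means were 4.80% ± 4.38 and 20.8% ± 12.7 (SD, n = 4 each), and the exact permutation p was 0.0571 over batches and 0.333 over animals. By animal *Gria1* took 57.7% and 44.3% in ChC and 40.8% and 39.7% in Pv, *Gria4* 28.03% and 40.4% against 25.1% and 32.04%, and *Gria3* 4.50% and 3.58% against 19.3% and 17.2%. Over batches the p of 0.0571 was the lowest of 10 measures (the 4 Gria shares, the 5 TARP shares and the ratio of TARP to Gria UMI), with a Benjamini-Hochberg adjusted p of 0.571.

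Among TARP UMI *Cacng2* held the largest part in every batch, at 60.7%, 83.7%, 49.8% and 87.4% in ChC and 50%, 93.6%, 79.6% and 88.1% in Pv batches, counted as UMI and not per length. Batches 1, 3 and 5 were low and the cell types overlapped. All TARP shares rest on 247, 141, 1152 and 167 TARP UMI in ChC and on 24, 78, 137 and 335 in Pv batches. *Cacng7* held 26.7%, 11.3%, 26.3% and 5.39% in ChC and 20.8%, 3.85%, 8.76% and 5.07% in Pv batches. *Cacng3* held 12.1%, 2.84%, 22.6% and 4.79% in ChC and 25%, 1.28%, 10.9% and 6.57% in Pv batches. As parts of 1 total these shares cannot all be high in 1 batch, and in batch 5 *Cacng2* was low by CPM while *Cacng3* and *Cacng7* lay within the range of the other Pv batches. By animal *Cacng2* held 69.1% and 54.6% in ChC and 83.3% and 85.6% in Pv, *Cacng7* held 21.1% and 23.7% against 7.84% and 6.14%, and *Cacng3* held 8.76% and 20.3% against 6.86% and 7.84%. These did not overlap, and each gave an exact permutation p of 0.333 over animals, the lowest that 2 against 2 allow. For *Cacng2* the difference was -22.6 points by animal and -7.39 points by batch. Per kb of span *Cacng7* was above *Cacng2* in batches 1, 3 and 5, where batch 5 held only 5 *Cacng7* and 12 *Cacng2* UMI.

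There were 0.163, 0.0464, 0.0856 and 0.0337 TARP UMI per Gria UMI in ChC batches and 0.0233, 0.112, 0.311 and 0.181 in Pv batches. The highest ratio (batch 7) and the lowest (batch 5) were both in Pv. By animal the ratio was 0.0852 and 0.0716 in ChC and 0.0592 and 0.206 in Pv, a difference of -0.0543 (two-sided exact permutation test over animals, p = 1.00; over batches, p = 0.314). Without animal 4 the difference was 0.0193, of the other sign, and without animal 3 it was -0.128. With each batch left out it ran from -0.106 (without batch 8) to -0.0154 (without batch 2).

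**Figure D2:**
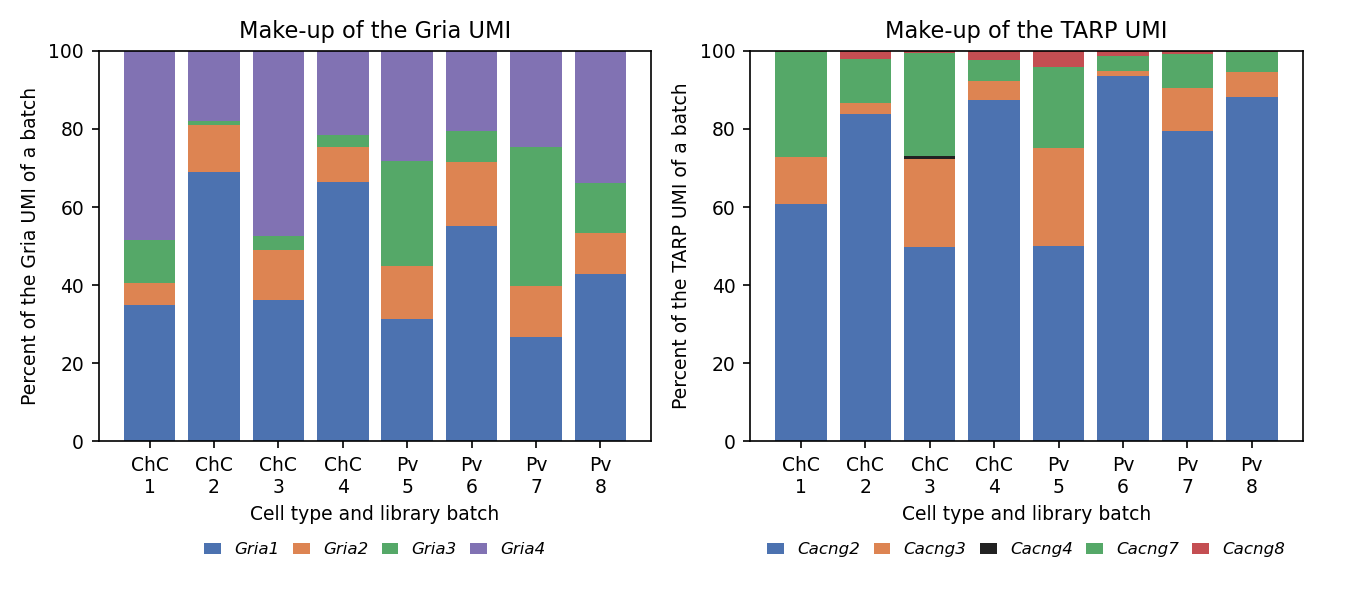
Percent of the Gria UMI (left) and of the TARP UMI (right) that each gene held in each of the 8 library batches. The *Gria1* share ran from 26.8% in batch 7 to 69.1% in batch 2, and *Cacng2* held at least 49.8% of the TARP UMI. The TARP bar of batch 5 rests on 24 UMI.

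Single cells were compared after each was thinned to 10000 UMI by drawing UMI without replacement, which left 48 ChC and 55 Pv cells. *Gria1* and *Gria4* each had a UMI in 100% of ChC cells and 98.2% of Pv cells, and *Gria2* in 100% and 92.7%. *Gria3* was found in 72.9% of ChC and 94.5% of Pv cells, from 4 of 9 cells in batch 2 to 16 of 16 in batch 8. Over the 34 markers of pyramidal, glial and endothelial cells, which these cells should lack, the median share of cells with a UMI was 2.08% in ChC and 1.82% in Pv, and 13 of them were in no thinned cell. The others reached up to 66.7% of ChC and 85.5% of Pv cells for *Nrgn*, 66.7% and 38.2% for *Slc1a2*, 52.1% and 38.2% for *Slc1a3*, and 20.8% and 61.8% for *Aldoc*, where *Slc1a3* and *Aldoc* were named after their values were seen. Each Gria gene was found in more cells than any of these markers.

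*Cacng2* was found in 89.6% of ChC and 74.5% of Pv thinned cells, and the Pv share was held down by batch 5, with 1 of 14 cells. *Cacng3* was found in 37.5% and 32.7% and *Cacng7* in 41.7% and 20.0%, less often than *Nrgn*, *Slc1a2* and *Slc1a3*. For *Cacng7* these were 11 of 11 cells in batch 1 and 0 of 14 cells in batch 4. *Cacng8*, at 2.08% and 0%, and *Cacng4*, at 0% of both, were at or under the median of the markers.

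All 4 Gria genes were found together in 35 of 48 ChC cells (72.9%) and 46 of 55 Pv cells (83.6%). No thinned cell had fewer than 3 of them, and 4 Pv and 0 ChC cells had other Gria UMI but none of *Gria2*. No UMI of the 5 TARP genes was found in 2 ChC cells (4.17%) and 7 Pv cells (12.7%), and these counts were the same with *Cacng5* counted as a TARP, which was chosen after seeing the data. All 7 of these Pv cells were in batch 5, and without it the share was 0% of 41 Pv cells, while ChC were at between 2.94% and 5.41% with each batch left out. *Cacng2* was the only one of the 5 TARP genes in 20 ChC and 24 Pv cells, and the only one of 6 with *Cacng5* in 18 and 24. The thinned cells held a median of 47 Gria and 3 TARP UMI in ChC and of 20 Gria and 2 TARP UMI in Pv. Without thinning, in 63 cells of each type, all 4 Gria genes were found in 85.7% of ChC and 95.2% of Pv cells. Among these cells 1.59% of ChC and 9.52% of Pv had no UMI of the 5 TARP genes.

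In cells with at least 20 Gria UMI (55 ChC and 51 Pv cells) the median *Gria2* share was 9.99% in ChC and 12.0% in Pv. The medians of the batches were 5.62%, 11.2%, 13.1% and 8.31% in ChC and 12.9%, 17.53%, 12.9% and 10.3% in Pv. Batches 1, 4, 8 and 2 were the lowest and batch 6 the highest, as in the summed UMI. For *Gria1* the batch medians were 38.7%, 69.8%, 36.4% and 67.5% in ChC and 31.1%, 53.6%, 29.4% and 43.5% in Pv, and no cell of batches 1 and 3 reached the lowest cell of batches 2 and 4. In cells with at least 10 Gria UMI they overlapped, with a cell of batch 4 at 16.7% and cells of batches 1 and 3 at up to 46.2%.

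For the 4 Gria shares in 8 batches, 32 values, the SD between cells was above that of binomial counting in 16, and the ratio of the observed to the binomial SD had a median of 1.01 and ran from 0.543 to 1.77. The 5 highest ratios were those of *Gria3* in batch 6 (6.91 against 3.91 points) and batch 4 (2.08 against 1.25), *Gria1* in batch 6 (11.5 against 7.40), *Gria4* in batch 1 (7.63 against 5.25) and *Gria1* in batch 4 (4.90 against 3.41). For *Gria2* the SD was above that of counting in 3 of 8 batches, with ratios from 0.543 in batch 3 to 1.39 in batch 6. Of the variance of the *Gria1* share over 106 cells, 15.1% lay within batches, 66.8% between batches of a cell type and 18.1% between cell types. For *Gria4* these were 22.7%, 71.2% and 6.09%, for *Gria3* 17.3%, 38.2% and 44.4%, and for *Gria2* 58.2%, 28.5% and 13.2%. A chi-square for even spread, which compared UMI of each cell with those its total would give and was divided by its degrees of freedom, had a median of 1.16 over 36 values of members with at least 100 UMI in a batch (range 0.569 to 3.16). Over all such genes the median ran from 0.991 to 1.25 between batches, and 2 member values lay above the 95th percentile of their batch, *Gria4* in batch 3 and *Gria1* in batch 4. This measure of spread was chosen after seeing the data.

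**Figure D3:**
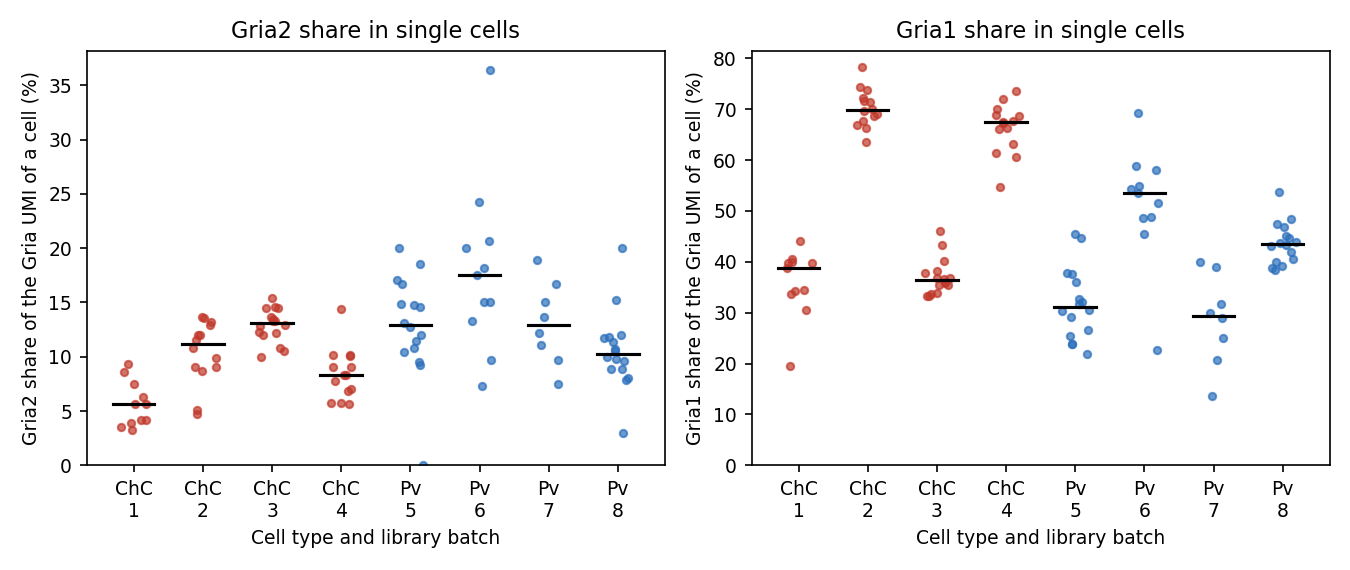
Share of *Gria2* (left) and of *Gria1* (right) in the Gria UMI of single cells with at least 20 Gria UMI, by library batch, with each point a cell and each bar the median of the batch. Batch medians of the *Gria1* share ran from 29.4% to 69.8%, and cells of batch 6 ran from 22.7% to 69.2%.

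Correlations between members over cells were weak. They were Spearman correlations of UMI per cell total within a batch, averaged over the 8 batches, in 103 cells of at least 10000 UMI that share a library within each batch. Pairs of members ran from -0.268 (*Gria3* and *Cacng2*) to 0.217 (*Gria2* and *Cacng7*), and *Gria1* with *Gria4* gave 0.155. Over all pairs of 6049 genes the median was 0.0105, and the range from the 5th to the 95th percentile was -0.164 to 0.187. The genes most like each member were *Cdk17* (0.375), *Rps19* and *Smarca2* for *Gria1*, *Cox6b1* (0.420), *Dab1* and *Fyn* for *Gria2*, *LOC100861908* (0.379), *Zfp560* and *Nkain3* for *Gria3*, and *Lnx1* (0.371), *Lrrc33* and *Rpl18* for *Gria4*. For the TARPs they were *Malat1* (0.337), *Spg11* and *Man1b1* for *Cacng2*, *Ccnh* (0.420), *Mfhas1* and *Ostc* for *Cacng3*, and *Fnbp4* (0.455), *Ppard* and *Irak2* for *Cacng7*. With shallow cells included, 3 of these 21 genes were again among the 3 most alike (*Smarca2*, *Cox6b1* and *Ccnh*), where 5165 genes were ranked in place of 6049.

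The codon at which RNA editing changes the pore of *Gria2* lies in an exon whose sequence the 4 subunit genes share in large part. It is shown because editing at this site, and not only the *Gria2* share, sets calcium permeability, and the counts of UMI do not read the edited base. The sequences are 71 bases of the coding strand from GENCODE vM1 transcripts, identical in the mm9 genome, with the codon of the site in capitals and ending at the end of the exon, 23 bases after the codon. They lie at chr11:57056551-57056621 on the plus strand (*Gria1*, exon 11 of 16), chr3:80510810-80510880 on the minus strand (*Gria2*, exon 11 of 17), chrX:38963397-38963467 on the plus strand (*Gria3*, exon 11 of 17) and chr9:4464114-4464184 on the minus strand (*Gria4*, exon 12 of 17). Of the 71 bases, 56 were equal to *Gria2* in *Gria1* (78.9%), 64 in *Gria3* (90.1%) and 61 in *Gria4* (85.9%).
Gria1: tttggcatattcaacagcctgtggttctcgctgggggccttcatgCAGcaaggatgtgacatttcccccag
Gria2: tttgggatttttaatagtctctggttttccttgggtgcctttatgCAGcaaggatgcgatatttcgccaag
Gria3: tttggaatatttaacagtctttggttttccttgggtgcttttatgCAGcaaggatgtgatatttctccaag
Gria4: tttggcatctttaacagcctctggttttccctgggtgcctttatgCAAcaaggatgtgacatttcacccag

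Enzymes of the ADAR family carry out this editing, and *Adarb1* encodes the one that acts on the *Gria2* site. *Adarb1* was at 39.3, 89.3, 249 and 84.0 CPM in ChC batches and at 63.8, 386, 158 and 116 CPM in Pv batches, with a log2 fold change of -0.47 (standard error 0.89, adjusted p = 0.989 from edgeR). It was 0.40 without batch 6, 0.10 without animal 1, 0.05 without animal 3 and -1.44 without animal 2. The cell types overlapped, and every batch held *Adarb1* UMI. *Adarb2*, a family member without known editing activity, was at 1694 CPM in batch 4 and at between 11.9 and 122 CPM in the other 7 batches. Batch 4 was also the batch with the highest sum of markers of other interneurons, and their part in the *Adarb2* level was not tested. The *Adarb2* log2 fold change was 2.80 (adjusted p = 0.797 from edgeR) and -0.61 without batch 4. *Adar* was at 319.7, 81.8, 29.2 and 166 CPM in ChC and 11.1, 14.6, 28.6 and 95.1 CPM in Pv batches.

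Other genes of the AMPA receptor pathway came from a list of 51 genes, of which 50 were in the table and 49 had a UMI. Of the 43 tested, 0 passed in edgeR and 1 had an unadjusted p under 0.05, with 27 log2 fold changes positive and 16 negative and a median of 0.31, against 0.05 over all genes. Over the alternatives this median ran from -0.01 (thinned cells) to 0.64 (without animal 4), where that of all genes was 0.00 and 0.57. In batches 1 of 37 was higher in all ChC batches and 0 of 37 in all Pv batches, against 3.18% and 1.66% of all genes. The gene of these 37 higher in all ChC batches was *Olfm3*, named here after its values were seen, which encodes a secreted olfactomedin known to bind AMPA receptor complexes. It was at 192, 264, 292 and 84.0 CPM in ChC batches and at 2.77, 12.1, 33.8 and 7.13 CPM in Pv batches. Its log2 fold change was 4.27 (standard error 1.04, adjusted p = 0.582 from edgeR, 0.00804 from DESeq2 without the filter and 0.00284 after it), and it was 5.15 without batches 4 and 7 (adjusted p = 0.435 from edgeR).

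Of the 12 other auxiliary subunits 8 were tested, with 5 log2 fold changes positive and 3 negative and a median of 0.42. The median was negative in 8 of 22 alternatives and ran from -0.91 (limma with the animal as a random effect) to 1.36 (without animal 2). It was -0.41 without batch 2 and -0.43 without batch 6. *Cnih3*, named here after its values were seen, had 49 UMI, did not pass the filter on low counts and was not tested. It was at 12.3, 18.6, 8.41 and 7.15 CPM in ChC batches and at 5.55, 0, 5.20 and 1.19 CPM in Pv batches, with all ChC batches above all Pv batches. The UMI were 5, 10, 21 and 8 in ChC and 2, 0, 2 and 1 in Pv batches. The share of 3.18% for all genes covers only genes that passed the filter, so it is no measure for *Cnih3*. *Cnih2*, a cornichon that slows receptor closing, was at 0, 269.6, 77.7 and 76.9 CPM in ChC batches and at 36.05, 0, 46.8 and 7.13 CPM in Pv batches. Batches 1 and 6 had no UMI, and the cell types overlapped. *Cpt1c* was at 56.4 ± 49.9 CPM in ChC and 150.3 ± 168 CPM in Pv batches, and *Prrt2* at 106 ± 121 and 89.8 ± 92.9 CPM (SD, n = 4 each). *Cacng5*, a TARP of the same type as *Cacng7*, had 18 UMI in 9 cells of batch 2, 9 UMI in 7 cells of batch 5, 1 UMI in batch 7 and 0 in the other 5 batches. As CPM of the batch total, batch 2 was at 32.4 with an exact Poisson 95% confidence interval of 19.2 to 51.1, and in batch 3, the deepest and from the other ChC animal, the upper limit of the interval was 1.499. These intervals cover counting error only. Over animals the *Cacng5* log2 fold change was 0.58 (standard error 2.14, adjusted p = 0.999 from edgeR). It was -0.46 without batch 6 and 3.41 without animal 3.

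Of the 5 genes of receptor assembly in the endoplasmic reticulum 1 log2 fold change was positive and 4 were negative, with a median of -0.60, which ran from -1.06 to -0.05 over the alternatives. *Porcn* was at 88.8 ± 52.9 CPM in ChC and 235 ± 185 CPM in Pv batches, *Sacm1l* at 87.5 ± 87.3 and 118 ± 88.2 CPM, and *Abhd6* at 67.6 ± 83.9 and 131 ± 98.2 CPM (SD, n = 4 each). The cell types overlapped for all 3. Of 15 trafficking and anchoring partners tested, 9 were positive and 6 negative, with a median of 0.31, which was negative in 3 of 22 alternatives and ran from -0.20 (without animal 2) to 0.44. The scaffold *Dlg2* was at 1632 ± 540 CPM in ChC and 1428 ± 489 CPM in Pv batches. *Grip1*, which binds the tails of *Gria2* and *Gria3*, was at 1183 ± 351 and 661 ± 181 CPM, and *Nsf*, which binds that of *Gria2*, at 693 ± 378 and 549 ± 311 CPM.

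Of the 10 extracellular partners 7 were tested, and 7 had a positive log2 fold change, with a median of 1.91, and 0 passed the test. The genes tested were all positive in 10 of 22 alternatives, with 5 of 7 positive without batch 2, and the median ran from 0.76 (without animal 1) to 4.76 (without animal 4). *Nptx1*, named here after its values were seen, was among the 3 not tested, with 0 UMI in all ChC batches and 25 and 35 UMI in Pv batches 7 and 8. *Olfm1* was at 812 ± 198 CPM in ChC and 468 ± 185 CPM in Pv batches, *Lrrtm3* at 277 ± 193 and 73.4 ± 79.1 CPM and *Nptxr*, the neuronal pentraxin receptor, at 221 ± 192 and 232 ± 263 CPM (SD, n = 4 each), and all 3 overlapped. The log2 fold change of *Nptxr* was 0.11 and ran from -0.90 to 1.38 over the alternatives. The 3 genes of the ADAR family had a median of 1.53, with 2 positive and 1 negative, and the median was -0.16 without batch 4 and ran from -0.79 (without animal 2) to 3.05 (without animal 4). The 5 kinases and phosphatase genes had a median of 0.02, with 3 positive and 2 negative, but the median was negative in 18 of 22 alternatives and ran from -1.10 (without animal 2) to 0.40 (without batch 2). *Prkaca* was at 596 ± 553 CPM in ChC and 564 ± 122 CPM in Pv batches, *Camk2b* at 275 ± 140 and 495 ± 153 CPM and *Ppp3ca*, a calcineurin subunit, at 284 ± 156 and 145 ± 77.3 CPM (SD, n = 4 each).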

How the data were processed

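The authors used Bowtie 0.12.7 to place reads on mm9, and the deposited table holds their counts of varietal tags per transcript in each cell, not normalized. Whether introns or the strand entered the counting is not stated. Of 2229 gene names with several rows and a UMI, 1677 had a second row that reached at least 50% of the top row's UMI and equalled it in most cells. A sum over rows would count molecules more than once, so the row with the most UMI was used for every gene, and the sum was an alternative. The 12 rows of members carry 9 names.

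UMI were summed per animal and compared with edgeR 4.0.16 in R 4.3.3 (TMM, filterByExpr, quasi-likelihood test, Benjamini-Hochberg adjustment over 9681 genes, threshold 0.05). The standard error is the log2 fold change divided by the root of the F statistic. Shares were compared by two-sided exact permutation tests in Python 3.11.15 with scipy 1.17.1, numpy 2.4.6 and pandas 2.3.3, and plots were drawn with matplotlib 3.10.9. Depth per batch and cell stands in the report. Thinning to 10000 UMI left out 23 shallower cells, 15 ChC and 8 Pv.

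Alternatives were RLE scaling, DESeq2 1.42.0, no filter on low counts, batches as samples, limma 3.58.1 with the animal as a random effect, sums over rows, cells of at least 10000 UMI, thinning, each batch or animal left out, means over single cells, and UMI per kb. Leaving out batches 4 and 7 together, leaving out single batches for the cells without a TARP UMI, *Cacng5* counted as a TARP, DESeq2 after the filter on low counts, signs and medians of lists under each alternative, and the spread within a batch were chosen after seeing the data. The genes named are all members, the label checks, the 3 genes with the most UMI of each pathway list, since none passed, the most abundant gene and those at 0 of each marker list, and the 3 genes most correlated with each Gria or TARP gene found in at least 50% of cells. Others are stated as chosen after their values were seen. Members and lists were chosen with earlier results of these data known. Of 103 list genes 102 were matched, 4 under an older symbol by the synonyms of RefSeq (GRCm38.p6). These were *Syndig1* as *Tmem90b*, *Frrs1l* as *6430704M03Rik*, *Epb41l1* as *Epb4.1l1* and *Lamp5* as *6330527O06Rik*. *Shisa8* was not found. No other gene's row overlaps the span of a member.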

Additional observations from a re-analysis of the deposited data

Results flagged for a closer look

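In 5 of 38 groups of 4 batches, 1 batch stood far from the other 3, and chance gives this in about 1 in 20 groups. *Gria1* in Pv batch 7 was at 307 CPM, where the other Pv batches were at between 893 and 940 CPM. *Cacng4* in ChC batch 3 was at 3.60 CPM and 0.781% of the TARP UMI, where the other ChC batches were at 0. Both values come from the same 9 UMI, and any gene with UMI in 1 of 4 batches only stands apart by this measure. *Cacng5* was at 33.5 CPM in ChC batch 2, with the other ChC batches at 0, and at 24.96 CPM in Pv batch 5, with the other Pv batches at between 0 and 2.60 CPM.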

How the results depend on the processing

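The count of genes past 0.05, which was 0 in edgeR over animals, stayed at 0 with RLE scaling, sums over rows, cells of at least 10000 UMI and thinned cells. It was 165 with DESeq2, 158 with DESeq2 after the filter on low counts (chosen after seeing the data), 84 with no filter, 6 with batches as samples, 6 with the animal as a random effect and 1 without batches 4 and 7 (chosen after seeing the data). With each batch left out it ran from 0 to 2, and it was 15 and 60 without ChC animals 1 and 2 and 14 and 96 without Pv animals 3 and 4, where the lone animal of a cell type is assumed to vary like the others. For *Gria1*, *Gria2*, *Gria3*, *Gria4*, *Cacng3* and *Cacng7* the log2 fold change kept its sign in all 22 alternatives, at between 1.15 and 2.01, 0.62 and 1.39, -1.58 and -0.24, 1.01 and 1.99, 0.12 and 2.56, and 1.46 and 3.01. *Gria1* passed the threshold with no filter (log2 fold change 1.61, adjusted p = 0.0470). *Cacng2* ran from -0.13 to 0.44 with each batch left out and changed sign without ChC batch 1 (-0.06), ChC batch 3 (-0.08), Pv batch 5 (-0.13), ChC animal 1 (-0.15) and Pv animal 3 (-0.44), and it was 1.09 without Pv animal 4. The *Gria2* share stayed lower in ChC in 19 of 19 alternatives, by between -4.25 and -0.267 points, and by between -4.25 and -1.11 with each batch left out. TARP UMI per Gria UMI stayed lower in ChC in 19 of 20, with a range of -0.106 to -0.0154 with each batch left out, was -0.128 without Pv animal 3 and was higher by 0.0193 without Pv animal 4. The share of cells with all 4 Gria genes was 49.1% in ChC and 50.8% in Pv at 5000 UMI and 85.7% and 95.2% without thinning. No TARP was found in 23.6% of ChC and 29.5% of Pv cells at 5000 UMI and in 1.59% and 9.52% without thinning. With each batch left out (chosen after seeing the data) no TARP was found in 2.94% to 5.41% of ChC and 0% to 17.9% of Pv cells, the 0% without batch 5. Of the 21 genes most like a member, 3 were shared with the lists from all cells. The cause of these changes was not tested. *Cacng4* and *Cacng8* had 9 and 18 UMI in all, and 2 animals a cell type limit every test over animals.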
